A study of Mus musculus with 4 samples.

Results

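Aristolochic acid I (AAI), a plant nephrotoxin, was compared with no AAI in the kidney cortex nuclei of control mice, in every cluster that is not proximal tubule. The members are 16 of the 23 clusters of the single nucleus RNA sequencing (snRNA-seq) table: all except the 7 clusters of normal or injured proximal tubule. The study held 4 male mice of mixed strain, 1 in each group. The control genotype carried the TRE-hKLF6 transgene alone, without a driver, and hKLF6 OE mice carried CAG-rtTA together with TRE-hKLF6, so that doxycycline induced human KLF6 in all tissues. All 4 mice were given doxycycline diet (200 mg/kg) from a week before AAI, and a single intraperitoneal injection of AAI at 2 mg/kg was followed by collection 24 hours later. The labels give the treatment of the other mice as none, whereas the study's methods describe DMSO alone as the control injection of its AAI models. With 1 mouse in each group there is no replicate check, no test was possible, and the clusters of one mouse share a library and are not replicates of one another.

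AAI is taken up by the proximal tubule through organic anion transporters, and its reduced metabolites form bulky adducts on the purines of DNA. Cells with damaged DNA stabilise the transcription factor p53, which activates genes for cell cycle arrest (*Cdkn1a*, *Btg2*), for its own degradation (*Mdm2*), and for repair and apoptosis. The clusters described here lie downstream of the proximal tubule (loop of Henle, distal convoluted tubule, connecting tubule and collecting duct) or outside the nephron epithelium altogether (endothelium, mesangial cells, macrophages), with the podocytes of the glomerulus. The comparison asks which transcripts moved in these cells, how widely, and which moved in one segment alone.

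The cluster names were checked against marker genes, using the mean of the 2 control genotype mice in counts per 10000. *Slc12a3*, the thiazide-sensitive cotransporter, was highest in DCT (169), *Slc8a1*, the sodium-calcium exchanger, in CNT (329), and *Slc12a1*, the furosemide-sensitive cotransporter, in LH-AL-1 (213) and LH-AL-2 (160). EC-2 held endothelial *Flt1* (22.8) and *Emcn* (19.9). The cluster named EC-1 went against its name: *Flt1* was 3.88 there, whereas *Slc34a1*, the proximal tubule phosphate cotransporter, was at 34.8, its highest level of the 16 clusters, and *Slc12a1* was at 29.9. It is called cluster 8 below. DCT_CNT and MC followed it in *Slc34a1*, at 29.8 and 21.6, and in *Lrp2*, the endocytic receptor megalin, at 12.7 and 8.12 against 14.1 in cluster 8, so proximal tubule transcripts were high in these 3 clusters. The Macrophage cluster held *Cd74* at 15.3 but also *Flt1* at 8.45 and *Emcn* at 6.03. The mesangial markers were mixed. MC was highest for *Pdgfrb* (2.36) and *Csmd1* (16.8). *Itga8* was higher in Macrophage than in MC, at 1.64 and 1.18, and *Gata3* was highest in CD_PC (3.23). The name mesangial cells is kept for MC below. LH-AL-3 held *Slc12a1* at 126 together with *Nos1* at 12.3 and *Ptgs2* at 2.58, genes which were at or near 0 in the other 15 clusters. LH-DL was highest for *Aqp1* (5.52), the water channel of the thin descending limb, and for *Bst1* (1.78).

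Promoters of p53 targets are shown first because p53 targets form the largest group among the transcripts that rose widely. The RefSeq promoters (GRCm38.p6, 250 bases before to 50 bases after the start site) were searched for the p53 response element, which is a pair of 10-base decamers, allowing 2 mismatches outside the core C and G of each decamer and a spacer of up to 13 bases. Each decamer is its own reverse complement in consensus, so the search covers both strands. The element was found in 4.09% of all 32851 promoters and in 6 of the 47 promoters of p53 list genes (12.8%), each of a different gene among 33. In the 3 stretches below, each from the gene's own strand, capitals mark both decamers. *Ccng1* rose in most clusters, *Cdkn1a* was at or near 0 without AAI, and *Rps27l* carries the element without being called higher in any of the 5 clusters where it was measured.
Ccng1, chr11:40755442-40755501, minus strand: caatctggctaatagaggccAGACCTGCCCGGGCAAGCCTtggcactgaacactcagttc
Cdkn1a, chr17:29090908-29090967, plus strand: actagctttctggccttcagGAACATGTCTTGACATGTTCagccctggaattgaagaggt
Rps27l, chr9:66946276-66946335, plus strand: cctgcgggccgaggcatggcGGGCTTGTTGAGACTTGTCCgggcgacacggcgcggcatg
Each of the 3 elements had 1 mismatch and no spacer. They began 195, 51 and 117 bases before the start site, respectively. Among the genes that rose alike, 1 of 7 with a promoter held the element, and among those that fell alike 0 of 20 did. A match describes the letters in this window and does not show that p53 was bound.

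The table gives, for each gene, cluster and mouse, an average number of transcripts per 10000 in a nucleus. Differences are given as log2(AAI value + 1) minus log2(control value + 1), a scale which understates the change of low genes. A gene was measured in a cluster where the larger of its 2 values was at least 0.5, and was called higher or lower where the difference was at least 0.5 in size. In 13 clusters, between 1.28% and 11% of 4056 to 5564 measured genes were called higher and between 1.43% and 11.7% lower. Macrophage, LH-DL and LH-AL-3 stood apart, with 23.7% to 28% called higher and 24.5% to 29.2% lower. In these 3 clusters 49.7% to 63.4% of genes were listed at 0, against 18.1% to 50.01% in the other 13. The numbers of nuclei behind the columns are not known here, so the depth of each value is unknown. The median difference of all measured genes lay between -0.05 and 0.06 in every cluster.

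**Figure D1:**
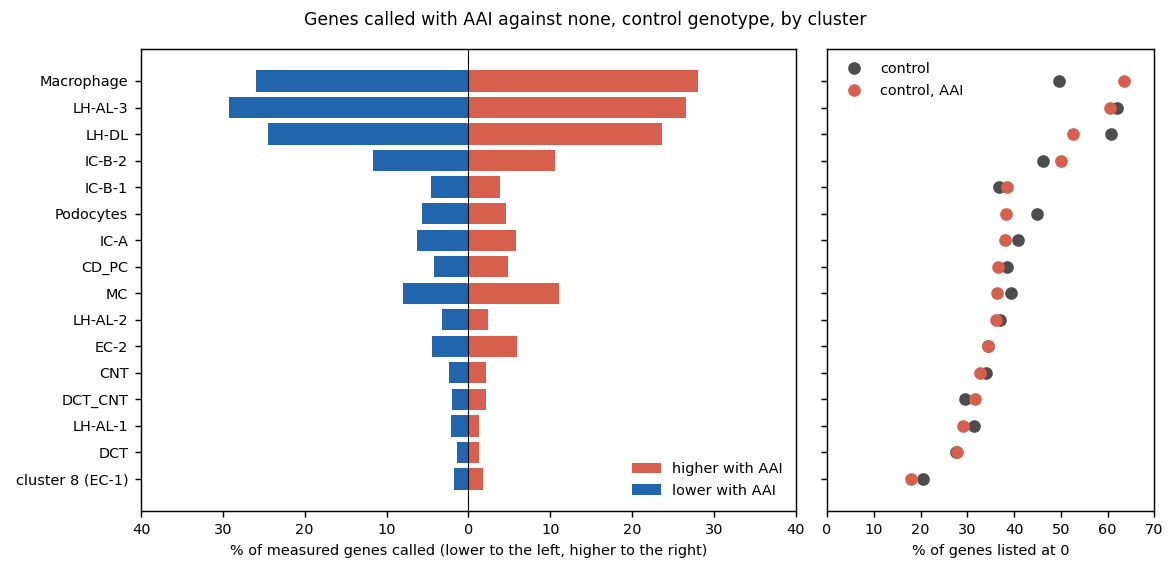
Left, percentage of measured genes called lower (bars to the left) or higher (bars to the right) with AAI in the control genotype, for each of the 16 clusters. Right, percentage of all genes listed at 0 in each of the 2 mice. Macrophage, LH-AL-3 and LH-DL have the longest bars in both directions and the most genes at 0, and the fewest genes at 0 are in cluster 8.

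A gene was taken to change alike where it was measured in at least 12 clusters, called in one direction in at least 10, and called in the other direction in none. Of 3591 genes measured in at least 12 clusters, 9 rose alike (0.251%) and 33 fell alike (0.919%). The rises were *Chd9*, *Egr1*, *Ccng1*, *Gdf15*, *Trp53inp1*, *Btg2*, *Cyp2a5*, *Spp1* and *Exoc4*. Of these, 8 were higher with AAI in all 16 clusters, and *Btg2* was higher in 15. At the wider limit of at least 8 clusters the counts were 17 higher (0.473%) and 46 lower (1.28%).

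*Chd9*, which encodes a chromodomain helicase of chromatin, was called higher in all 16 clusters and had the largest median difference of the 9 rises. Without AAI its lowest, median and highest levels over the clusters were 1.17, 2.14 and 6.27 per 10000, and with AAI they were 3.84, 9.29 and 20.5. The ranges overlap through LH-DL alone, which went from 6.27 to 16.7. The median difference was 1.59 (1.11 to 2.66), with the largest rise in CD_PC, from 1.86 to 17.1, and the highest level with AAI in MC, from 3.49 to 20.5. *Chd9* spans 226 kb of chromosome 8 (90828352 to 91054516, mm10). Averaged over the normal proximal tubule clusters it went from 2.1 to 13.3, within the range seen outside. *Exoc4*, a subunit of the exocyst complex that tethers secretory vesicles and a gene of 725 kb on chromosome 6, was called higher in 10 clusters. Its lowest, median and highest levels were 2.12, 5.50 and 7.60 without AAI and 6.33, 7.99 and 10.8 with AAI. In the CNT and Podocytes clusters its difference was 0.11, far below the threshold.

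The p53 targets *Ccng1*, *Gdf15*, *Trp53inp1* and *Btg2* made up 4 of the 9 rises. *Ccng1*, cyclin G1, whose promoter element is printed above, ranged from 0 to 0.569 over the clusters without AAI, with a median of 0.308, and from 0.688 to 3.18 with AAI, with a median of 1.08. These ranges did not overlap. The largest difference was in MC, from 0 to 3.18, and the smallest in Podocytes, from 0.431 to 0.688. *Trp53inp1*, which encodes a p53-induced nuclear protein of cell death and autophagy, was called in 14 clusters, with a median level of 0.321 without AAI and 1.30 with AAI. *Gdf15*, a stress-induced cytokine of the TGF-beta family, went from a median of 0.0882 to 0.711 and was called in 11 clusters. *Btg2*, an antiproliferative gene, went from a median of 0.202 to 0.9 and was called in 10 clusters, with IC-B-2 the one cluster where it was slightly lower, 1.36 against 1.22.

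The p53 list had more pairs called higher than all genes did, although not all members moved. Of its 43 genes, 32 were measured in at least 1 cluster, which gave 229 gene and cluster pairs, and 25 of the 32 had a median difference above 0. Of these pairs 42.8% were called higher and 4.37% lower, against 9.58% and 9.65% of the 78249 pairs of all genes. The median of the list was above 0 in 15 of 16 clusters, from -0.14 in CNT to 0.62 in MC and cluster 8. The count called higher ran from 2 of 11 measured members in CNT to 14 of 22 in MC, and LH-AL-3 had 4 members higher and 4 lower. *Mdm2*, the ubiquitin ligase that degrades p53, was called in 9 clusters with medians of 0.936 and 1.97, and in LH-AL-3 it stood at 1.26 and 1.27. *Cdkn1a*, which encodes the cell cycle inhibitor p21, was at 0 in 12 of 16 clusters without AAI. With AAI its median was 0.429, its highest level was 1.2 in MC, and it stayed at 0 in LH-AL-3. It was measured in only 5 clusters and called in 4. *Bcl2l1*, an apoptosis inhibitor, was called in 6 clusters and *Polk*, a polymerase that copies past DNA lesions, in 5.

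Other listed p53 targets did not move in this way. *Sesn1*, a sestrin of the stress response, was measured in all 16 clusters and had a median difference of 0.00. *Rrm2b*, the p53-inducible ribonucleotide reductase subunit, had -0.02 over the 16 clusters and was measured in 13. *Xpc* and *Ddb2*, damage recognition genes of nucleotide excision repair, had -0.04 and 0.05 over the 16 clusters. They were measured in only 6 and 9 of these, so their medians include clusters with low values. *Rps27l*, with its promoter element, had a median difference of 0.12 over the 16 clusters. It was measured in only 5, and was called higher in 0 clusters and lower in 1, LH-AL-3. The separate list of DNA damage sensing and repair genes had 7.98% of pairs higher and 6.13% lower, and its median was 0.04. Its member with the largest median difference was *Rev1*, a translesion polymerase, at 0.27.

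*Egr1*, an immediate early zinc finger transcription factor, was called higher in 13 clusters. Its lowest, median and highest levels were 0, 0.332 and 1.30 without AAI and 0.487, 1.54 and 5.99 with AAI. The high values lay in CD_PC, from 1.21 to 5.99, and in LH-AL-3, from 0 to 5.76, and the difference was smallest in IC-A, from 0.721 to 0.874. The immediate early list, which holds the Fos, Jun and Egr genes induced within minutes of a stimulus, had 43.8% of 112 pairs higher and 5.36% lower, and its median was above 0 in all 16 clusters, with a median over clusters of 0.47. *Junb* was the other member called in at least 8 clusters. The list of acute phase and STAT3 genes, of which *Junb* is also a member, had 33.3% of 75 pairs higher and 8.00% lower, with its median above 0 in 16 clusters. The list of chemokines, cytokines and NF-kB genes had 29.3% of 123 pairs higher and 9.76% lower, or 22.4% and 11.21% without its member *Spp1*. The glucocorticoid list had 20.2% higher and 5.20% lower, with *Fkbp5*, a co-chaperone of the glucocorticoid receptor, rising from a median of 2.05 to 3.91.

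The other 2 rises were *Cyp2a5* and *Spp1*. *Cyp2a5*, a cytochrome P450 of xenobiotic metabolism, was called in 11 clusters. It ranged from 0 to 1.10 without AAI, with a median of 0.232, and from 0.443 to 2.84 with AAI, with a median of 0.982. *Spp1*, which encodes the secreted phosphoprotein osteopontin, was called in 12 clusters, with a lowest, median and highest level of 0.846, 2.15 and 10.7 without AAI and 1.28, 4.06 and 26.3 with AAI. Its largest rise was in LH-AL-3, from 2.96 to 26.3, and its smallest in CD_PC, from 1.88 to 2.20.

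**Figure D2:**
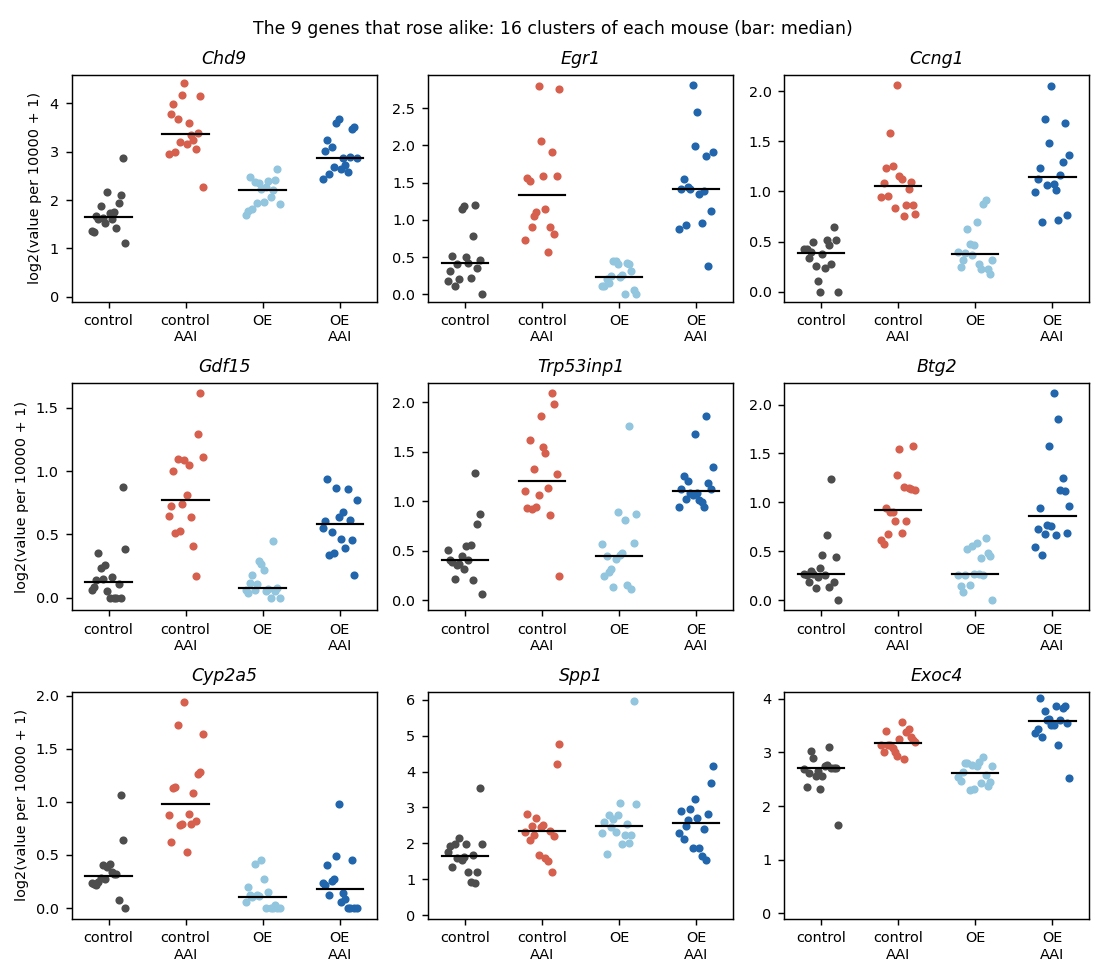
Levels of the 9 genes that rose alike, as log2(value per 10000 + 1) on the vertical axis, in the 16 clusters (points) of each of the 4 mice, with the median as a bar. *Chd9*, *Egr1*, *Ccng1*, *Gdf15*, *Trp53inp1*, *Btg2* and *Exoc4* are higher with AAI in both genotypes, and *Cyp2a5* and *Spp1* are higher in the control genotype with little difference in hKLF6 OE.

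The same contrast in the hKLF6 OE pair used 2 mice that took no part in choosing these genes. In all, 8 of the 9 rises had a median difference above 0 there, against 66.0% of all 3591 genes, and 6 were past the threshold. *Chd9* had a median difference of 0.74 and was called in 15 clusters, *Egr1* 1.14 and 15, *Exoc4* 0.97 and 14, *Trp53inp1* 0.69 and 12, *Ccng1* 0.67 and 11, and *Btg2* 0.62 and 10. *Gdf15* was at 0.43. *Cyp2a5* stood at 0.0779 and 0.133 in the hKLF6 OE pair, a median difference of 0.02. *Spp1* had a median difference of -0.06, with medians of 4.62 and 4.93, and it was already higher without AAI in hKLF6 OE than in control mice, by a median of 0.86. The p53 list had a median of 0.42 and was above 0 in 16 clusters of this pair. In the normal proximal tubule clusters of the control genotype, all 9 rises were past the threshold in the same direction. The share of all measured genes past the threshold in those clusters is not given here. With AAI, the proximal tubule mean was above the median outside for all except *Cyp2a5* and *Spp1*. For *Trp53inp1* it was 2.17 against 1.30, and for *Spp1* 2.00 against 4.06. Whether the rises outside were made in those clusters or came from the proximal tubule as free RNA was not tested. Averaged values cannot tell these apart.

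Leaving out Macrophage, LH-DL and LH-AL-3, 6 of the 9 rises met the rule in the remaining 13 clusters (at least 10 measured and 8 called). The genes lost were *Gdf15*, which was measured in 9 of these clusters and called in 8, and *Btg2* and *Exoc4*, each called in 7.

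The 33 falls held 3 kinds of transcript: 7 from the list of proximal tubule transcripts, 6 encoded by the mitochondrial genome, and 20 in neither list. In all, 22 of the 33 were lower with AAI in every cluster. Called lower in all 16 clusters were *Gm42397*, *G6pc*, *Ndrg1* and *Ddx5*.

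*Ndrg1*, a stress and hypoxia response gene, had a lowest, median and highest level of 3.90, 7.27 and 24 without AAI and 1.81, 2.85 and 11.38 with AAI. Its differences lay in a narrow range, from -1.21 to -0.69, with a median of -1.0. Cluster 8 was highest in both mice, from 24 to 11.38, and LH-AL-3 lowest, from 3.90 to 1.81. *G6pc*, the catalytic subunit of glucose-6-phosphatase in gluconeogenesis, ranged from 1.66 to 5.88 without AAI (median 2.95) and from 0.406 to 2.62 with AAI (median 0.876). *Gm42397*, a long noncoding RNA on chromosome 7 (70870913 to 71073345), ranged from 0.587 to 8.41 (median 1.41) and from 0 to 0.934 (median 0.0820). These 3 genes were also higher in the proximal tubule than outside it: without AAI their average over normal proximal tubule clusters was 31.6 for *Ndrg1*, 8.14 for *G6pc* and 11.6 for *Gm42397*, and with AAI 13.9, 2.98 and 2.02.

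Of the 33 falls, 25 had a proximal tubule mean above their median outside it in the control mouse, 18 had one above their highest value outside it, and 15 were highest in cluster 8. The same shares of all measured genes are not given here, so whether these counts are unusual is not known. *Slc34a1*, the sodium-phosphate cotransporter of the proximal tubule brush border, was called lower in 15 clusters. Its lowest, median and highest levels were 8.43, 13.3 and 45.3 without AAI and 4.05, 8.03 and 24.2 with AAI, and the proximal tubule mean went from 58.4 to 30.1. *Ass1*, argininosuccinate synthase of arginine synthesis, fell from a median of 2.74 to 1.11 and was called in 13 clusters. *Inmt*, an indolethylamine methyltransferase, went from 1.58 to 0.429, *Nat8f1*, an N-acetyltransferase family gene, from 2.90 to 1.18, and *Akr1c21*, an aldo-keto reductase, from 1.90 to 0.603, as medians over clusters. *Miox*, the inositol oxygenase of the proximal tubule, went from 3.89 to 2.00 and *Slc27a2*, a fatty acid transporter and acyl-CoA synthetase, from 6.15 to 3.5.

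The summed level of the 40 proximal tubule transcripts was lower with AAI in 16 of 16 clusters. It ranged from 164 to 441 per 10000 without AAI (median 222) and from 117 to 396 with AAI (median 165). Of the list's 614 pairs, 33.4% were called lower and 4.23% higher, and its median was below 0 in all 16 clusters. In the normal proximal tubule clusters the same sum was 558 without AAI and 562 with AAI. Whether these transcripts were made in the clusters or came from the proximal tubule as free RNA cannot be told apart in averaged values.

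The 13 transcripts of the mitochondrial genome, which encode subunits of the respiratory chain and ATP synthase, were lower in sum with AAI in 15 of 16 clusters. The sum ranged from 128 to 380 without AAI (median 230) and from 89.4 to 290 with AAI (median 135), and DCT_CNT was the exception. Of the 179 pairs 58.1% were called lower and 1.12% higher. *mt-Nd4*, a subunit of complex I, went from a median of 15.2 to 6.97, *mt-Atp6*, of ATP synthase, from 33.3 to 16.9, *mt-Cytb*, of complex III, from 13.6 to 7.70, and *mt-Co3*, of complex IV, from 66.4 to 38.0. The list of nuclear-encoded subunits of oxidative phosphorylation had 10.5% of 819 pairs lower, 5.37% higher and a median of -0.10. Of its pairs in hKLF6 OE mice, 31.2% were lower and 2.46% higher, and its median of -0.33 was below 0 in 16 of 16 clusters.

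*Ddx5*, an RNA helicase of splicing and transcription, was called lower in all 16 clusters. It ranged from 8.54 to 16.8 without AAI and from 4.65 to 8.11 with AAI, so that the ranges did not overlap. The median difference was -0.76, and the largest fall was in CD_PC, from 14 to 5.46. In the hKLF6 OE pair it stood at a median of 8.32 without AAI and 8.28 with AAI. The list of splicing factors to which it belongs had 6.79% of 604 pairs higher and 7.62% lower.

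In the hKLF6 OE pair, all 33 falls had a median difference below 0, against 34.0% of all genes, and 24 were past the threshold. *Ndrg1* was called in all 16 clusters there (median difference -1.19), *mt-Atp6* had -1.68, *Ass1* -1.37, *Miox* -1.60 and *Acy3*, an aminoacylase, -1.41. Besides *Ddx5*, *Rab11fip3*, an endosomal trafficking gene (-0.07), and *Nuak2*, a kinase (-0.10), were within 0.1 of 0 there. The sums of both lists were lower with AAI in all 16 clusters of this pair, from a median of 265 to 140 for proximal tubule transcripts and from 296 to 125 for mitochondrial transcripts. In the normal proximal tubule clusters of the control genotype, 31 of the 33 falls had the same direction and 18 were past the threshold, again without the share of all genes beside them. Without Macrophage, LH-DL and LH-AL-3, 29 of the 33 met the rule in the other 13 clusters.

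**Figure D3:**
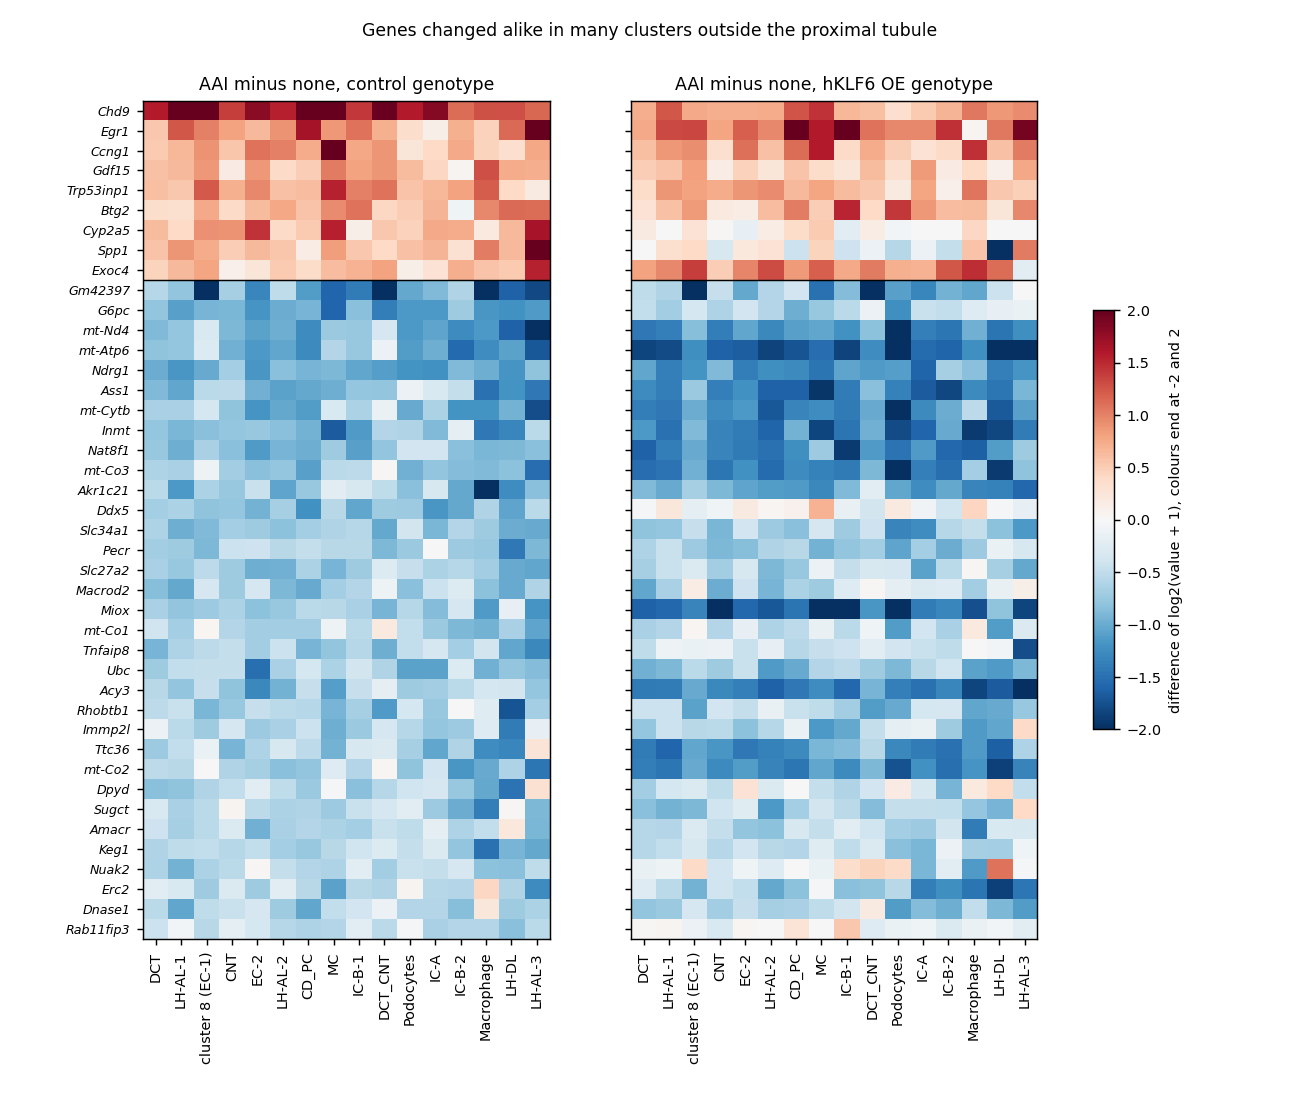
Differences of log2(value + 1), AAI minus none, for the 9 genes that rose alike (above the line) and the 33 that fell alike (below it) in the 16 clusters, with the control pair on the left and the hKLF6 OE pair on the right. Red is higher and blue lower with AAI, and colours end at -2 and 2. *Ddx5*, *Nuak2* and *Rab11fip3* are blue on the left and near white on the right, as *Cyp2a5* and *Spp1* are red on the left only.

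**Figure D4:**
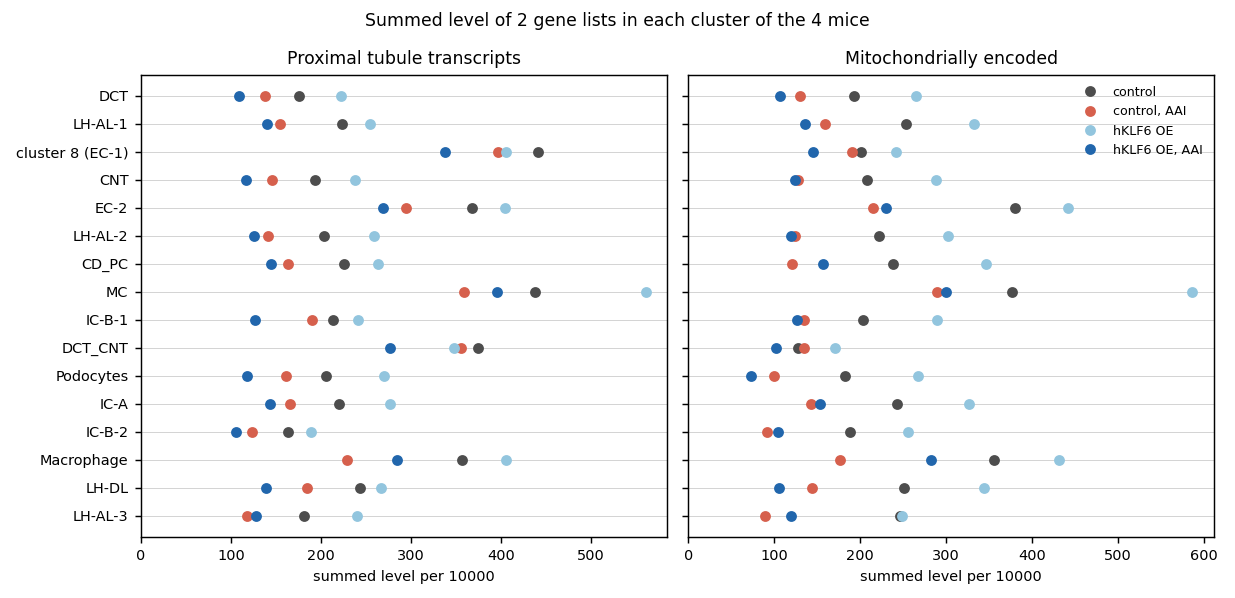
Summed level per 10000 of 40 proximal tubule transcripts (left) and 13 mitochondrially encoded transcripts (right) in each cluster, 1 point for each of the 4 mice. The AAI points lie to the left of the points without AAI of the same genotype in every cluster, except for mitochondrial transcripts in DCT_CNT of the control genotype.

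The remaining lists are given beside the 9.58% of pairs higher and 9.65% lower of all genes. Cytosolic ribosomal protein genes had 11% of pairs higher and 8.69% lower and a median of 0.08, whereas in the hKLF6 OE pair their median was -0.39 and below 0 in 16 clusters. Heat shock genes had 10.8% higher and 6.15% lower, NRF2 targets 4.33% and 12.2%, hypoxia and glycolysis genes 6.53% and 14.6%, and genes of the integrated stress response 12.3% and 10.8%. Tubule injury markers had 17.3% higher and 10.1% lower, but 9.76% and 11.38% without *Spp1*, which is a member. The EGF family had 16.2% and 10.1%. The descending limb list, also with *Spp1*, had 39.1% of 64 pairs higher and 3.12% lower (27.1% and 4.17% without it), but a median of -0.25 in the hKLF6 OE pair against 0.39 in the control pair. Endothelial genes had 30.8% of 91 pairs higher in the control pair, where their median over clusters was 0.31, against 0.09 in the hKLF6 OE pair. Genes of S and G2/M phase were measured in only 9 pairs. The members with the largest median differences included *Rora*, a nuclear receptor of the clock list (-0.55, called lower in 9 clusters), *Fxyd2*, a regulator of the sodium pump (-0.44), *Gclc*, of glutathione synthesis (-0.39), *Rpl7*, a ribosomal protein (0.38), *Mt1*, a metallothionein (0.37), *Egf* (-0.33), *Ndufa6*, of complex I (-0.29), and *Hspa8*, a heat shock cognate (-0.29). *Col4a3*, a basement membrane collagen of the podocyte list, was called lower in 9 clusters (-0.54) and *Pde10a* in 8 (-0.52). The medians of the other segment lists and of nuclear long noncoding RNAs are within 0.2 of 0.

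A gene was taken to change in one segment where its difference was at least 1 in size, with the larger value at least 2, in a cluster of that segment, and under 0.5 in size in every cluster outside it. DCT, CNT and DCT_CNT made one segment, as did the LH-AL clusters, the IC clusters, and EC-2 with cluster 8. Cluster 8 was kept with EC-2 despite its markers, so genes of EC-2 were not required to stay under 0.5 there. Of 3274 genes with a value of at least 2 in some cluster, 170 met this (5.19%): 92 rises and 78 falls. Most lay in the 3 clusters with the most genes at 0, with 72 in Macrophage, 58 in LH-AL-3 and 26 in LH-DL. In the hKLF6 OE pair 108 of the 170 had the same direction in the same cluster, against 62.1% of all gene and cluster pairs of at least 2, and 52 were also called, against 16.9% of all pairs of at least 2 in the control pair. Of the 170, 22 were measured in no cluster outside the segment and so could not be called there. Without those 3 clusters 41 of 2619 genes met the rule (1.57%), an alternative chosen after seeing the data, of which 10 were measured in no cluster outside. In the hKLF6 OE pair 28 of the 41 (68.3%) had the same direction, against 63.9% of all pairs, and 11 (26.8%) were also called, against 14.5%. By segment, 15 were in intercalated cells, 8 in mesangial cells, 8 in EC-2, 6 in podocytes, 2 in the distal convoluted and connecting tubule, 2 in principal cells and 0 in the ascending limb. For most genes below, values of the hKLF6 OE pair stand beside those of the control pair. Genes that met the rule only without the 3 clusters were picked by a call in both pairs, with their values in view, as were *Mgat4c*, *Kdr*, *Egf* and *Opcml*.

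Podocytes, the filtering epithelium of the glomerulus, had 2 one-segment genes called in both pairs when Macrophage, LH-DL and LH-AL-3 were left out. Only 1 of them, *Nell2*, also met the rule over all 16 clusters. *Nell2*, which encodes a secreted glycoprotein with EGF-like repeats (chromosome 15, 95075230 to 95528559), went from 7.14 to 1.39 in the control pair and from 6.93 to 0.613 in the hKLF6 OE pair. It was measured in no cluster outside, so it could not be called lower elsewhere. *Nsf*, the ATPase that takes SNARE complexes apart after membrane fusion (chromosome 11, 103821782 to 103954056), went from 0.753 to 8.18 and from 1.95 to 11.8. It was measured in all 12 outside clusters of the 13 without being called in any. *Nsf* differed by at least 0.5 in size in a left-out cluster, so it failed the rule over all 16. *Opcml*, a cell adhesion gene, went from 3.53 to 8.47 in podocytes of the control pair but was listed at 0 in both hKLF6 OE mice. *Dach1*, a transcription factor and the podocyte list member with the largest difference, went from 56.8 to 92.7 and from 47.3 to 71.7.

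Intercalated cells secrete acid (type A) or bicarbonate (type B). With Macrophage, LH-DL and LH-AL-3 left out, 7 of their one-segment genes were called in both pairs. Over all 16 clusters 3 were: *Sctr*, *Syt7* and *Bmpr1b*. *Hs3st5*, *Plxna4*, *Myo9a* and *Aftph* differed by at least 0.5 in size in a left-out cluster. *Sctr* and *Syt7* were measured in no cluster outside, and *Hs3st5* in none of the outside clusters kept. In IC-B-1 *Sctr*, the secretin receptor, went from 2.49 to 0.03 and in the hKLF6 OE pair from 1.25 to 0.19. The other 6 were in IC-B-2. *Syt7*, a synaptotagmin of calcium-regulated exocytosis, went from 7.30 to 1.24 (hKLF6 OE from 4.08 to 2.39), and *Plxna4*, a semaphorin receptor, from 17.7 to 7.06 (15.4 to 9.72). *Bmpr1b*, a BMP receptor, went up from 10.1 to 22.8 (12 to 17.8), and *Hs3st5*, a heparan sulfate sulfotransferase, from 2.03 to 8.72 (0.19 to 3.20). *Myo9a*, an unconventional myosin, and *Aftph*, a trafficking adaptor, were the remaining rises. *Jag1*, a Notch ligand, went from 1.16 to 3.36 and *Dkk3* from 2.47 to 0.372 in IC-B-2, and neither was called in the hKLF6 OE pair. In IC-A *Slc4a9*, a bicarbonate transporter of type B cells, stood at 10.0 and 3.30, and in the hKLF6 OE pair at 7.74 and 5.28, a difference of -0.48 that was not called.

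In mesangial cells *Mafg*, a small Maf transcription factor, went from 1.74 to 4.83 (hKLF6 OE from 0.971 to 2.28), and *Lsamp*, a cell adhesion gene, from 2.13 to 0.0917 (1.09 to 0.146). *Lsamp* was far higher in type B intercalated cells. Its mean over the 2 control genotype mice was 79.2 in IC-B-2 and 74.2 in IC-B-1, against 1.11 in MC. *Mafg* met the rule only with Macrophage, LH-DL and LH-AL-3 left out. *Kirrel3*, an adhesion gene of the immunoglobulin family, turned the other way between the pairs, from 3.90 to 0.83 and from 1.57 to 3.56. *P4hb*, protein disulfide isomerase, went from 0.511 to 2.06 (hKLF6 OE 1.19 and 1.68). *Ren1*, renin, was the mesangial list member with the largest difference, from 2.32 to 0.748, but it went from 1.41 to 2.01 in the hKLF6 OE pair.

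**Figure D5:**
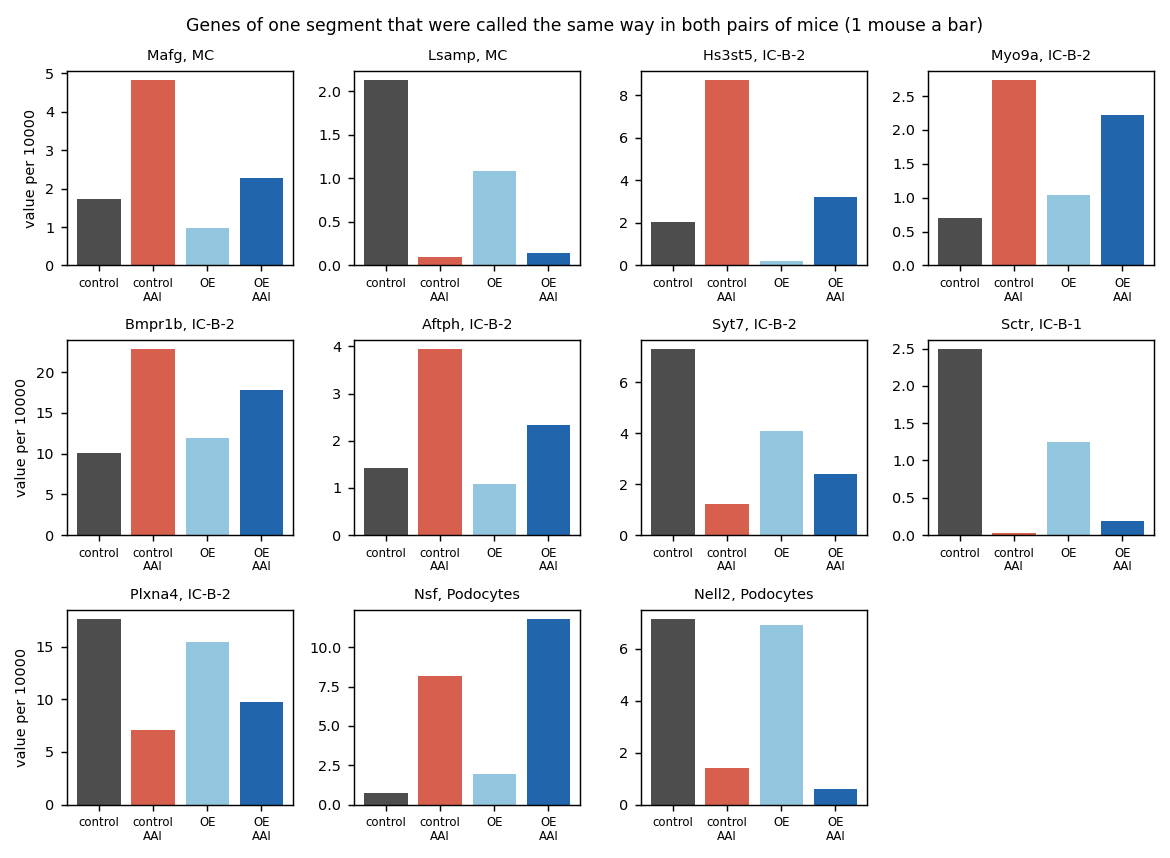
Level per 10000 in each of the 4 mice (1 mouse a bar, no error) for the 11 one-segment genes that were called the same way in both pairs, when Macrophage, LH-DL and LH-AL-3 are left out. Each panel names the gene and its cluster and has its own axis from 0. *Nell2*, *Sctr* and *Lsamp* are low in both AAI mice, and *Nsf*, *Hs3st5* and *Mafg* are higher with AAI in both genotypes.

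In principal cells, which reabsorb sodium and water, *Ralyl*, an RNA-binding protein gene, went from 1.86 to 8.09, but it stood at 3.08 and 2.96 in the hKLF6 OE pair. *Mgat4c*, a glycosyltransferase gene of the principal cell list, went from 12.9 to 26.3 and from 10.3 to 24. *Pde10a*, a cyclic nucleotide phosphodiesterase, went from 4.02 to 1.2 in this cluster, and in the hKLF6 OE pair from 4.15 to 2.92, a difference of -0.40 that was not called. In EC-2 *Bcl2*, an apoptosis inhibitor, went from 2.41 to 0.45 and *Nxpe4* from 0.65 to 2.30, but in the hKLF6 OE pair they stood at 1.30 and 1.08 and at 1.63 and 1.35. *Kdr*, the VEGF receptor of endothelium, went from 3.61 to 2.05 and from 4.67 to 2.55. In DCT *Grin3a*, a glutamate receptor subunit, went from 2.01 to 0.34, with 0.84 and 0.48 in the hKLF6 OE pair. In CNT *Calb1*, the calcium-binding protein of distal segments, went from 17.6 to 8.65, and in the hKLF6 OE pair from 14.9 to 13.6.

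With a threshold of 0.5 in place of 1 inside the segment, also chosen after seeing the data, 619 genes met the rule in the 13 clusters. Of these 410 (66.2%) had the same direction in the hKLF6 OE pair, against 63.9% of all pairs, and 105 (17%) were also called, against 14.5%, so both shares lay near those of all pairs. The same direction was held by 71 of 86 genes of EC-2 and cluster 8 (82.6% against 66.7% of all pairs there), of which 78 were in EC-2 with 64 in the same direction. It was held by 22 of 28 in the distal convoluted and connecting tubule (78.6% against 69.0%), 28 of 37 in the ascending limb (75.7% against 63.5%) and 30 of 44 in principal cells (68.2% against 62.6%). The shares were 66 of 110 in mesangial cells (60.0% against 56.5%), 165 of 268 in intercalated cells (61.6% against 61.4%) and 28 of 46 in podocytes (60.9% against 59.1%). In EC-2, *Il15*, a cytokine, went from 1.30 to 3.17 and from 1.11 to 3.03, and *Tgfbr3*, a TGF-beta co-receptor, from 2.34 to 3.98 and from 1.63 to 3.40. In DCT_CNT *Egfr*, the EGF receptor, went from 2.23 to 4.39 and from 1.91 to 4.49, and in LH-AL-2 *Cldn16*, the claudin of magnesium reabsorption, from 1.27 to 2.25 and from 0.830 to 2.76. In podocytes *Ldhb* and *Mdh1*, lactate and malate dehydrogenases, went from 3.40 to 1.61 and from 2.95 to 1.66, and in the hKLF6 OE pair from 4.54 to 1.52 and from 3.75 to 1.55. These 6 genes were likewise picked with their values in view.

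The 3 clusters with the most genes at 0 held genes with strong differences that repeated and others that did not. In LH-AL-3 *Prr16* went from 0.25 to 5.92 and from 1.70 to 6.36. *Ptgs2*, cyclooxygenase-2, and *Cacna1d*, a calcium channel, both picked with their values in view, went from 0.70 to 4.46 and from 1.39 to 6.64, and in the hKLF6 OE pair from 0 to 3.39 and from 2.07 to 6.29. *Nos1*, which has its highest level in this cluster, stood at 11.7 and 12.9, with 5.96 and 13.1 in the hKLF6 OE pair. *Egf*, the growth factor made by the thick ascending limb, went from 27.7 to 8.71 and from 42.3 to 2.21. *Hnrnpm*, a splicing factor, went from 0.0469 to 3.11 and *Golga4*, a golgin, from 0.0469 to 2.47, and in the hKLF6 OE pair from 1.61 to 3.09 and from 0.725 to 3.06. The level of 0.0469 was the smallest non-zero value of LH-AL-3 in the control mouse without AAI, so the sizes of both rises in the control pair are uncertain. *Tmem259*, *Grb7* and *Sft2d2* were listed at 0 with AAI, from 2.40, 2.39 and 2.36, and of these *Tmem259* was also called in the hKLF6 OE pair. The 3 largest rises of the Macrophage cluster were not called in the hKLF6 OE pair: *Col14a1*, a collagen, went from 0 to 3.15, *Klhdc1* from 0 to 2.91 and *Lrrc8c*, a volume-regulated anion channel subunit, from 0.815 to 5.59, but there they stood at 0.729 and 0.700, 0.412 and 0.0870, and 1.82 and 2.20. In the same cluster *Rffl*, a ubiquitin ligase, went from 2.61 to 0 and from 1.86 to 0.33, *F13a1*, coagulation factor XIII subunit A, from 2.27 to 0 and from 1.49 to 0, and *Maf*, a macrophage transcription factor, from 3.67 to 0.44 but from 3.07 to 3.93. In LH-DL *Htr4*, a serotonin receptor, went from 0.37 to 4.20, *Ank2*, a membrane adaptor, from 2.66 to 0.08, and *Ndufa4*, a respiratory chain gene, from 2.58 to 0.19. In the hKLF6 OE pair *Htr4* stood at 1.94 and 2.04, *Ank2* at 0.403 and 0.645, and *Ndufa4* went from 2.19 to 0.815. *Asb3*, *Pcsk5* and *Plk5* went from 0 to 2.22, from 0.239 to 2.29 and from 2.03 to 0 in LH-DL of the control pair, and none was called in the hKLF6 OE pair.

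The study divided genes at 30 and 100 kb of length, so the genomic spans of the called genes were compared. Over the 16 clusters a median of 35.5% of the genes called higher were longer than 100 kb, against 26.9% of measured genes and 25.9% of those called lower. The share was greater among genes called higher than among those called lower in 14 of 16 clusters. In the hKLF6 OE pair the same medians were 44.0%, 26.8% and 14.9%, and 15 of 16 clusters had the greater share among genes called higher. The genes that changed alike did not follow this: the median span was 6.76 kb for the 9 rises and 14.9 kb for the 33 falls, against 59.0 kb for genes measured in at least 12 clusters, although *Chd9* and *Exoc4* are long.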

How the data were processed

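Kidney cortex nuclei of 4 mice, processed as one technical batch, were sequenced by the authors on the 10x platform, aligned with Cell Ranger 3.1.0 to a pre-mRNA reference (mm10) and clustered in Seurat 4.3 (30 principal components, resolution 0.8), after nuclei with fewer than 200 or more than 6000 genes or over 10% mitochondrial reads, and genes in fewer than 3 nuclei, were left out. The function used for averaging is not given in the sources used here. Values deposited by the authors are a signal: average counts per 10000 per nucleus, for each cluster and mouse, with columns that sum to 10000 over all rows. The unit was read from the values. The study's own comparison took nuclei as replicates, which was not done here, and doublets could not be assessed from averages.

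From these, differences of log2(value + 1) were computed for 19609 genes in Python 3.11.15 with numpy 2.4.6 and pandas 2.3.3, after 23 rows with date-like names were left out. No count test applies to averages, and with 1 mouse per group no p-value or standard error is given. Genes were taken for naming by size: the 12 largest median rises and falls among genes changed alike, the 3 largest rises and falls in each segment, list members called in at least 8 clusters, the largest member of each list, and the members of the p53 list and of each segment's own list with the largest difference in that segment. Other one-segment genes are marked as picked with their values in view. The members, thresholds and 30 gene lists were chosen with earlier results of these data known. Spans are from GENCODE M21 and promoters from RefSeq GRCm38.p6. The rules were run on control values with small added noise and large planted changes in well expressed genes. This checked the code and does not show how the rules behave on columns of unknown depth. Alternatives changed the pseudocount, the minimum value, the thresholds, the centring, the genes or the clusters.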

Additional observations from a re-analysis of the deposited data

Results flagged for a closer look

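*Spp1* differed between the genotypes: its median difference over the 16 clusters was 0.61 in the control pair, with every cluster higher with AAI, and -0.0624 in the hKLF6 OE pair, where 2 clusters were called higher and 2 lower. The difference between the pairs was not tested, since each holds 1 mouse on each side. In hKLF6 OE mice without AAI the level was already higher than in control mice without AAI, and in LH-DL it went from 61.9 to 11.8 with AAI in hKLF6 OE.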

How the results depend on the processing

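Rises and falls alike numbered 33 and 64 with a pseudocount of 0.1, 3 and 20 with a minimum value of 2, 54 and 81 with a threshold of 0.25, and 1 and 1 with a threshold of 1. Under the other alternatives for these counts they stayed within 1.5 times of 9 and 33. Genes changed in one segment numbered 170, and 21 with a pseudocount of 0.1 (9 shared), 488 with no filter on low values, 468 with a minimum of 20 times the smallest non-zero value, 586 with a threshold of 0.5, 2 with a threshold of 2, 21 with a limit of 0.25 outside the segment and 717 with one of 1, 41 without Macrophage, LH-DL and LH-AL-3, and 619 without these and with a threshold of 0.5. A minimum of 2 in place of 0.5 changes nothing there by construction. The cause of these shifts was not tested. List medians moved with a pseudocount of 0.1 to 0.74 for p53 targets, 1.17 for immediate early genes, 0.42 for chemokines, 0.54 for acute phase genes and -0.48 for proximal tubule transcripts, and with a minimum of 2 to 0.82, 1.14, 0.51 and 0.58 for the first 4 and -0.27 for hypoxia genes. The share of genes over 100 kb was 35.9% among those lower at a threshold of 1, and 53.8% among those higher and 38.8% among those lower with a minimum of 2. Of 268 values for the 21 named genes changed alike, 256 moved by less than the limit used and 12 by more. Of 368 for the 32 named one-segment genes, 336 stayed at or past the threshold of the setting and 32 fell below it. None of these results reversed. Alternatives that changed only the minimum value or a threshold left the differences of named genes unchanged by construction. Leaving out clusters did the same for one-segment genes. Those values could not reverse. No paired analysis was possible because each group holds 1 mouse. The depth of the columns is unknown, which leaves the precision of each value unknown.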
